A study of Arabidopsis thaliana with 30 samples.

Results

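Galactinol synthases and raffinose synthases are the enzymes that make the raffinose family of sugars. The genes described are the 4 galactinol synthase genes GolS1 (AT2G47180), GolS2 (AT1G56600), GolS3 (AT1G09350) and GolS4 (AT1G60470) and the 4 raffinose synthase-like genes RS2 (AT3G57520), RS4 (AT4G01970), RS5 (AT5G40390) and RS6 (AT5G20250, also named DIN10). They were taken by locus identifier, as the genes of both enzyme families, with earlier results of these data known, and all 8 were found among the 33602 genes of each count table. All 8 passed the filter on low counts that left 22156 genes for testing.

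Galactinol synthase joins UDP-galactose to myo-inositol to give galactinol, and raffinose synthase moves the galactose of galactinol onto sucrose. Raffinose and galactinol accumulate in drought, salt, cold and heat and are regarded as osmoprotectants and scavengers of radicals, and in Arabidopsis GolS1 and GolS2 are known as genes induced by drought and heat while GolS3 is known for its induction by cold. RS5 is the enzyme that makes most of the raffinose of stressed Arabidopsis leaves, RS4 makes raffinose and stachyose in seeds, and RS2 and RS6 belong to a related branch whose members include alpha-galactosidases.

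The seedlings were Arabidopsis thaliana of the wild type labelled Col-O or of aba2-3, a mutant in ABA2, a dehydrogenase of abscisic acid (ABA) synthesis. Both genotypes had 1 day of light to start germination and 4 days of darkness, and were then treated for 2 hours with ethanol as a mock, with 10 uM of the auxin indole-3-acetic acid (IAA) or, in Col-O alone, with 10 uM ABA. Every seedling was cut where root and shoot meet, giving 10 groups of 3 libraries (Col-O mock, IAA and ABA and aba2-3 mock and IAA, each as root and as shoot). The labels do not say whether the 3 libraries of a group came from separate cultures, so the p-values measure the spread between these libraries, which may be technical. The libraries are bulk tissue, in which a change in the number of cells of a type and a change in RNA per cell cannot be told apart.

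Total counts ran from 3.9 M to 99.3 M a library, with a second lowest of 11.8 M. All 6 auxin-induced check genes rose in each of the 4 IAA comparisons and all 6 ABA-induced check genes rose in both ABA comparisons. Levels are given as CPM, the counts of a gene scaled to a common library total by the TMM method. ABA2 itself averaged 22.6 ± 2.21 CPM (SD, n = 3) in Col-O mock roots and 26.0 ± 4.22 CPM in aba2-3 mock roots, a difference that did not pass the test (edgeR adjusted p = 0.632), so its transcript level does not check the genotype labels. In 5 of 15 root libraries the 10 shoot markers stood at 6.80 to 11.6% of their median level in shoots, with a summed level of 3225 to 6463 CPM, against 0.308 to 2.21% and 172 to 1074 CPM in the other 10, and none of the markers was at 0 in any root library. These are Col-O mock root replicate 3, Col-O IAA root replicate 2, replicates 2 and 3 of the ABA-treated Col-O roots, and replicate 1 of the aba2-3 mock roots. Among shoots, Col-O mock shoot replicate 1 had its shoot markers at 36.5%, and the 10 root markers ran from 12.8 to 44.7% of their median root level over the 15 shoot libraries. The 44.7% was that of ABA-treated Col-O shoot replicate 3, which was kept in all fits but those leaving out single libraries. Col-O mock shoot replicate 1 had its root markers at 42.7%. This mock library and aba2-3 IAA shoot replicate 3 were left out together with those 5 roots in an alternative fit. The latter was the shallowest of the 30, with its shoot markers at 99.5%. The fit is called here the fit without the 7 libraries set aside, and it leaves 1 ABA-treated Col-O root library.

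Sequence before the start of 4 genes is shown, because GolS2 and RS5 rose and RS6 fell with ABA in both organs, while GolS1 was called with ABA in roots alone. Shown is the part of the 250 bases before the deposited start that lies outside the RefSeq gene model. Sequences were read 5′ to 3′ from the RefSeq copy of TAIR10.1, and lie at chr1:21207287-21207536 on the plus strand, chr5:16161265-16161448 on the plus strand, chr5:6833409-6833563 on the plus strand and chr2:19370479-19370691 on the minus strand. Capitals mark the core of the ABA-responsive element, ACGTG, or of the dehydration-responsive element, CCGAC, on either strand, and the longer G-box CACGTG, which contains the first of these on both strands.
GolS2: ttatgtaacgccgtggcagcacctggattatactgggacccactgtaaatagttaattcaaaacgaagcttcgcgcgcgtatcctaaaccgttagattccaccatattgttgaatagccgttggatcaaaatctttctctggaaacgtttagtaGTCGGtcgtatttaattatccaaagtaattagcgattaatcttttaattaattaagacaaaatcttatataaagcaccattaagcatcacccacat
RS5: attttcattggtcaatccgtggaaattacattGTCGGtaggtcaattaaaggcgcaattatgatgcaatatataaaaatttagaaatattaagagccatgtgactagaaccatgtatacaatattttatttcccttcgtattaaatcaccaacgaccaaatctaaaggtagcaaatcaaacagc
RS6: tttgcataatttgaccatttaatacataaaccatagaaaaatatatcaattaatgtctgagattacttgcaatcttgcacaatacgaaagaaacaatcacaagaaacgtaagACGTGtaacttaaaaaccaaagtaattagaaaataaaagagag
GolS1: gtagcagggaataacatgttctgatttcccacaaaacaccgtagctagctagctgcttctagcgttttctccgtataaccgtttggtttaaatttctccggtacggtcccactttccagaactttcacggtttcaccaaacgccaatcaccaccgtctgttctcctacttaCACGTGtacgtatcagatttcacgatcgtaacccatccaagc

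The core CCGAC was found 96 bases before the start of GolS2 and 218 bases before that of RS5, both read on the opposite strand, and in 13.1% of 33322 windows of the same length before all genes. The core ACGTG was found before RS6 at 138 bases, and within a G-box before GolS1 at 79 bases and before RS2 at 73 bases, against 23.1% of all windows for ACGTG and 6.75% for CACGTG. The windows of GolS3, GolS4 and RS4 held neither core. TGTCTC, the core bound by auxin response factors, was found in the window of RS2 (12% of all windows). GAANNTTC, part of the heat shock element, was found in those of GolS1 and GolS2 (9.5% of all windows). Positions and shares refer to the whole windows of 250 bases before the deposited starts. RefSeq places the starts of all members but GolS2 upstream of the deposited ones, so that 37 bases of the window of GolS1, 66 of RS5, 95 of RS6, 180 of GolS3, 13 of RS2, 7 of GolS4 and all 250 of RS4 lie inside the RefSeq gene model.

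**Figure D1:**
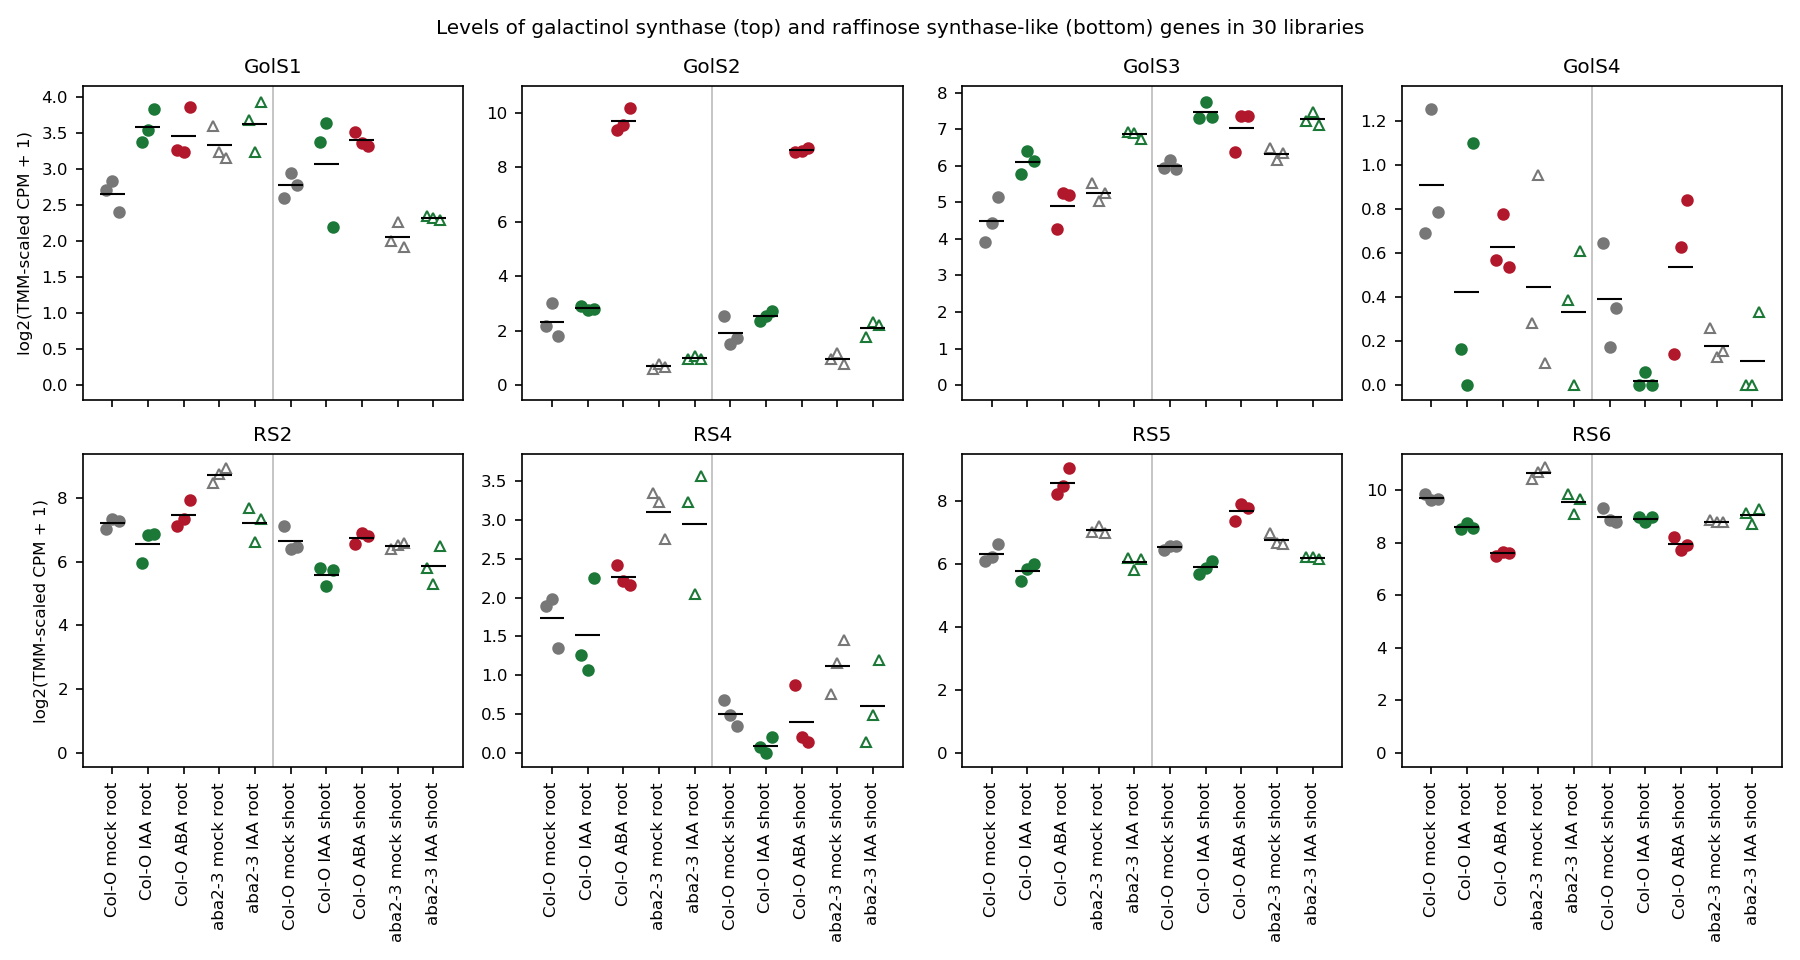
Levels of the 8 genes in all 30 libraries, as log2 of TMM-scaled CPM plus 1, with root groups left and shoot groups right of the grey line in each panel. Each point is 1 library (filled circles Col-O, open triangles aba2-3; grey mock, green IAA, red ABA) and each bar is the mean of 3; the 3 ABA root libraries and 3 ABA shoot libraries of GolS2 stand between 374 and 1158 CPM, while all other groups of that gene lie at or under 7.11 CPM.

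In wild-type mock roots RS6 and RS2 had the highest levels of the 8 genes, and RS4 and GolS4 the lowest. Per kilobase of exon, RS6 stood at 286 CPM, RS2 at 53.5, RS5 at 28.1, GolS3 at 17.7, GolS1 at 3.92, GolS2 at 3.13, RS4 at 0.848 and GolS4 at 0.675. The summed level of the 4 galactinol synthase genes was 25.4 ± 7.05 CPM per kilobase in these roots and 55.4 ± 4.62 in mock shoots (SD, n = 3 each). GolS3 made up 67.8 ± 12.9% of that sum in roots and 87.9 ± 1.73% in shoots, so it was the leading galactinol synthase transcript of untreated seedlings in both organs. The 4 raffinose synthase-like genes summed to 368 ± 16.8 CPM per kilobase in roots and 245 ± 45.3 in shoots, and RS6 gave 77.5 ± 3.33% and 71.4 ± 1.55% of these sums.

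Root and shoot of mock-treated Col-O differed for 3 of the 8 genes, 2 higher and 1 lower in roots, where 49.9% of all tested genes were called (24.3% higher, 25.6% lower). Without the 7 libraries set aside 5 of 8 were called, while the count over all genes stayed within 1.5 times of that in the main fit. GolS3 stood at 14.1, 20.7 and 34.2 CPM in the 3 root libraries and at 60.3, 70.6 and 59.3 CPM in the 3 shoot libraries. The groups did not overlap, and the highest root value belonged to replicate 3, one of the 5 root libraries with raised shoot markers. The root minus shoot difference of GolS3 was -1.47 on the log2 scale (SE 0.29, edgeR adjusted p = 1.25e-04), and -1.92 without the 7 libraries set aside. RS6 was higher in root than in shoot by 0.70 (SE 0.19, adjusted p = 0.00257) and RS4 by 2.49 (SE 0.65, adjusted p = 0.00238), RS4 at a mean of 2.41 CPM in roots and 0.427 in shoots. GolS2 did not pass (0.59, adjusted p = 0.128). Without the 7 libraries set aside GolS2 passed, at 1.36 with an adjusted p of 3.49e-04, and RS2 passed as well (0.76, adjusted p = 0.0393).

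ABA raised GolS2 and RS5 and lowered RS6 in both organs of the wild type. In roots 4 of 8 genes were called (3 higher, 1 lower), against 15.7% of all tested genes (8.31% higher, 7.4% lower), and in shoots 4 of 8 (3 higher, 1 lower), against 9.65% (4.98% higher, 4.67% lower). The median log2 difference of the 8 genes was 0.54 in roots and 0.65 in shoots, beside -0.03 and -0.07 over all genes tested. GolS2 had the 13th highest fitted rise of 22156 genes in roots and the 3rd in shoots.

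GolS2, a stress-induced galactinol synthase, stood at 3.48, 7.11 and 2.52 CPM in mock roots and at 664, 741 and 1158 CPM in ABA roots. In shoots it stood at 4.74, 1.86 and 2.33 CPM after mock and 374, 384 and 417 CPM after ABA. Every ABA library was far above every mock library. The difference was 7.60 on the log2 scale in roots (SE 0.39, edgeR adjusted p = 5.5e-13), a 194-fold rise, and 7.06 in shoots (SE 0.38, adjusted p = 1.6e-12), a 134-fold rise. The root rise was larger than the shoot rise by 0.54 (SE 0.43), which did not pass the test (adjusted p = 0.597), and without the 7 libraries set aside, which leave 1 ABA root library, the sign turned to -0.63.

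GolS1, a galactinol synthase also known for stress induction, rose little beside GolS2. It stood at 5.50, 6.14 and 4.27 CPM in mock roots and at 8.56, 8.40 and 13.5 CPM in ABA roots, groups that did not overlap. The log2 difference was 0.93 (SE 0.29, edgeR adjusted p = 0.0279), and it was no longer called in 3 of 6 fits without 1 library. It was 0.58 without the 7 libraries set aside, which leave 1 ABA root library. In the 3 fits that lost the call, without mock root replicate 1 or 3 or ABA root replicate 3, the adjusted p was 0.0714, 0.109 and 0.145. In shoots its difference of 0.70 did not pass (adjusted p = 0.135).

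GolS3, the cold-induced galactinol synthase, rose in ABA-treated shoots. Its levels were 60.3, 70.6 and 59.3 CPM after mock and 82.4, 164 and 163 CPM after ABA, so ABA replicate 1 lay well below the other two but above all mock libraries. The difference was 1.11 (SE 0.28, edgeR adjusted p = 0.011), and its adjusted p was 0.0579, 0.0524 and 0.0573 without mock shoot replicate 3, ABA shoot replicate 2 or ABA shoot replicate 3. In roots GolS3 stood at 18.3, 37.5 and 35.7 CPM after ABA, overlapping the mock roots, and the difference of 0.41 did not pass (adjusted p = 0.388). The 2 higher ABA root libraries are among the 5 with raised shoot markers. GolS4 stayed at or under 1.39 CPM in all 30 libraries, with 0 counts in 6 of them, where 3 counts would correspond to 0.133 to 0.253 CPM. GolS4 was called in no comparison and in none of the alternative fits, which does not show that its levels were equal. It stood at 0.562, 0.128 and 0.274 CPM in Col-O mock shoots and at 0, 0.0429 and 0 CPM in Col-O IAA shoots, groups that did not overlap but differed by few counts.

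RS5, the main raffinose synthase of stressed leaves, stood at 66.9, 73.3 and 98.3 CPM in mock roots and at 298, 353 and 523 CPM in ABA roots. In shoots the levels were 84.8, 94.2 and 94.7 CPM after mock and 163, 236 and 218 CPM after ABA. Neither organ showed overlap between treatments. RS5 rose by 2.30 in roots (SE 0.20, edgeR adjusted p = 4.6e-09) and by 1.17 in shoots (SE 0.19, adjusted p = 1.53e-04). The root rise exceeded the shoot rise by 1.13 (SE 0.27, adjusted p = 0.0301). That difference between organs was not called in 7 of 12 fits without 1 library, where the adjusted p reached 0.135. It was 0.95 without the 7 libraries set aside, which leave 1 ABA root library.

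RS6, the dark-inducible gene of the family, moved the other way. It stood at 922, 784 and 819 CPM in mock roots and 180, 201 and 197 CPM in ABA roots. In shoots it stood at 638, 469 and 443 CPM after mock and 300, 208 and 238 CPM after ABA, again with no overlap. RS6 fell by 2.13 in roots (SE 0.19, edgeR adjusted p = 8.1e-09), to 0.229 of its mock level, and fell by 1.05 in shoots (SE 0.19, adjusted p = 3.36e-04), to 0.482. The root minus shoot difference of these responses was -1.07 (SE 0.26, adjusted p = 0.0315), lost in 9 of 12 fits without 1 library, with an adjusted p of up to 0.129. It was -1.39 without the 7 libraries set aside, which leave 1 ABA root library. These organ differences of RS5 and RS6 were the 2 of 8 members called, against 1.72% of all tested genes (0.903% higher, 0.812% lower), and leaving out Col-O mock root replicate 1 or 2, mock shoot replicate 2 or 3, ABA root replicate 3 or ABA shoot replicate 1 left 0.

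RS2 and RS4 were not called with ABA in either organ. RS2 stood at 138, 162 and 242 CPM in ABA roots beside 130, 160 and 153 CPM in mock roots, and at 91.8, 118 and 110 CPM in ABA shoots beside 139, 83.2 and 86.7 CPM in mock shoots, overlapping in both organs. RS4 averaged 3.82 CPM in ABA roots and 2.41 CPM in mock roots, and under 0.5 CPM in both kinds of shoot.

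GolS2 in place of GolS3 was the leading galactinol synthase transcript of both organs after ABA, and among the raffinose synthase-like genes RS5 led in ABA roots while RS6 still led in ABA shoots. GolS2 took 95.1 ± 1.17% of the summed galactinol synthase level in ABA roots and 71.9 ± 6.27% in ABA shoots, against 12.9 ± 6.81% and 3.91 ± 2.13% after mock. The sum itself reached 643 ± 197 CPM per kilobase in roots and 393 ± 47.9 in shoots. RS5 took 50.6 ± 3.19% of the raffinose synthase-like sum in ABA roots, where RS6 held 24.9 ± 4.59%, and in ABA shoots RS5 held 37.0 ± 6.45% and RS6 43.2 ± 8.66%. The raffinose synthase-like sum stood at 270 ± 63.0 CPM per kilobase in ABA roots and 196 ± 2.60 in ABA shoots (SD, n = 3 for each of these values).

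**Figure D2:**
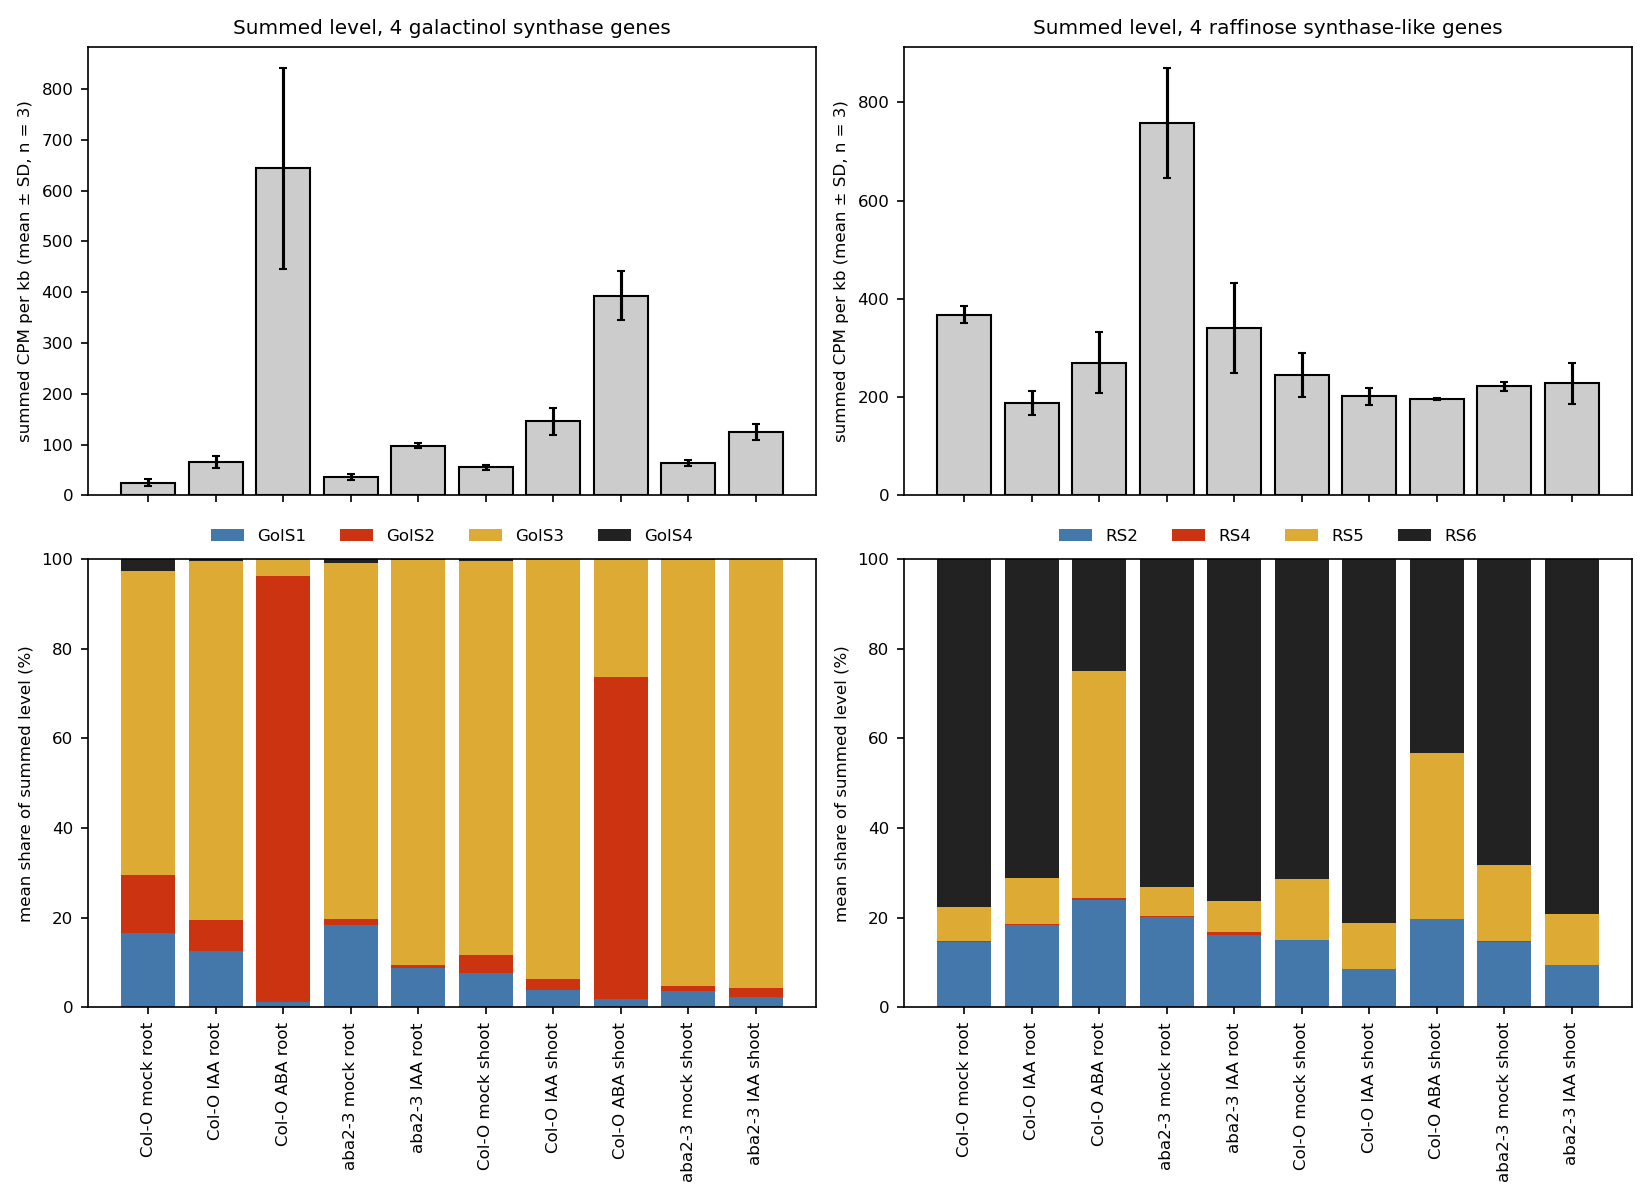
Top, summed level of the 4 galactinol synthase genes (left) and the 4 raffinose synthase-like genes (right) in CPM per kilobase of exon, with bars for the mean and whiskers for the SD of 3 libraries in each of 10 groups. Bottom, mean share of each gene in that sum; GolS2 (red, left) takes 95.1% in ABA roots and 71.9% in ABA shoots, and RS5 (yellow, right) takes 50.6% and 37.0%.

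Genes that supply or use the substrates of the pathway were compared from a list of 33, of which 32 were tested. With ABA 10 were higher and 2 lower in roots, against 8.31% and 7.4% of all genes, and 7 higher and 1 lower in shoots, against 4.98% and 4.67%. With the compared groups alone the shoot counts were 4 higher and 1 lower. The list had a median log2 difference of 0.43 and 0.24 beside -0.03 and -0.07 over all genes. SPSA2, a sucrose phosphate synthase, rose by 5.74 in roots (SE 0.36, edgeR adjusted p = 1.11e-11) and 4.05 in shoots. MIPS2, an inositol phosphate synthase that leads to myo-inositol, rose by 2.87 and 2.95. UGE5 and UGE2, epimerases that make UDP-galactose, rose by 3.07 and 2.56 in roots and by 2.51 and 1.55 in shoots. SUS1, a sucrose synthase, rose by 1.10 in shoots, where 3 of 6 fits without 1 library did not call it. MIOX2, an oxygenase that breaks down myo-inositol, fell by 2.32 in roots. SPSB, another sucrose phosphate synthase, was called higher in roots but stood at no more than 0.115 CPM after mock and 0.475 to 1.17 CPM after ABA, and 5 of 6 fits without 1 library did not call it.

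Among 4 transcription factors listed as regulators of galactinol synthase genes, 2 were higher in each organ after ABA and none was lower. Of all tested genes 8.31% were higher and 7.4% lower in roots, and 4.98% and 4.67% in shoots. DREB1A, a factor of the cold response that binds the dehydration-responsive element, rose by 4.98 in roots and 3.95 in shoots. DREB2A, its drought and heat counterpart, rose by 1.62 and 1.30 (edgeR adjusted p = 8.81e-08 and 4.88e-06). With IAA 1 of the 4 was called in Col-O roots, where 2.92% of all tested genes were lower. This was DREB2A, which fell by 0.87 (edgeR adjusted p = 0.00212). In the other 3 IAA comparisons 0 were called by edgeR or DESeq2. By edgeR 2.22% of all genes were called in Col-O shoots, 11.8% in aba2-3 roots and 1.92% in aba2-3 shoots. Of the 4 factors 1 in Col-O shoots, 0 in aba2-3 roots and 1 in aba2-3 shoots had an unadjusted p under 0.05 by edgeR.

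IAA raised GolS3 and lowered RS6 in wild-type roots. In Col-O roots 3 of 8 genes were called (2 higher, 1 lower), against 5.57% of all genes tested (2.64% higher, 2.92% lower), and in Col-O shoots 2 of 8 (1 higher, 1 lower), against 2.22% (0.921% higher, 1.3% lower). In aba2-3 roots 4 of 8 were called (1 higher, 3 lower), against 11.8% (7.02% higher, 4.82% lower), and in aba2-3 shoots 1 of 8, higher, against 1.92% (1.4% higher, 0.515% lower). The comparisons with IAA and with ABA in Col-O share the same mock libraries.

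GolS3 stood at 53.5, 83.2 and 68.8 CPM in Col-O IAA roots, all above the 3 mock roots, and rose by 1.58 (SE 0.29, edgeR adjusted p = 0.00128). In Col-O shoots IAA gave 159, 215 and 160 CPM, all above the mock shoots, a rise of 1.49 (SE 0.28, adjusted p = 0.00397). Both rises kept their calls without the 7 libraries set aside, at 1.79 and 1.49. In aba2-3 roots the levels were 45.0, 31.5 and 36.9 CPM after mock and 121, 119 and 105 CPM after IAA, and GolS3 rose by 1.61 (SE 0.29, adjusted p = 5.31e-04). In aba2-3 shoots the levels were 87.9, 70.9 and 80.3 CPM after mock and 149, 178 and 139 CPM after IAA. These groups did not overlap either, but the difference of 0.96 did not pass (SE 0.28, adjusted p = 0.0861), and it passed without the 7 libraries set aside (1.07, adjusted p = 0.0117), of which only the shallow IAA replicate 3 belongs to these groups, with DESeq2 (1.01, adjusted p = 0.0147) and with the compared groups alone (1.01, adjusted p = 3.78e-04).

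GolS1 stood at 9.35, 10.6 and 13.2 CPM in Col-O IAA roots, above all 3 mock roots. It rose by 1.05 (SE 0.29, edgeR adjusted p = 0.0317), but 5 of 6 fits without 1 library did not call it, and nor did the fit without the 7 libraries set aside (0.93, adjusted p = 0.165). The lost calls were those without mock root replicate 1, 2 or 3 or IAA root replicate 2 or 3, with an adjusted p between 0.0629 and 0.127. In aba2-3 roots GolS1 was already at 11.1, 8.43 and 7.89 CPM after mock, and IAA libraries at 11.8, 8.42 and 14.2 CPM overlapped them.

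GolS2 responded to IAA in aba2-3 shoots, from 0.946, 1.27 and 0.716 CPM after mock to 2.36, 4.00 and 3.62 CPM, levels that remained low. The rise was 1.74 (SE 0.37, edgeR adjusted p = 0.00929). Without aba2-3 mock shoot replicate 3 or IAA shoot replicate 2 it was 1.61 and 1.56 with an adjusted p of 0.0599 and 0.0894. In Col-O the IAA differences of GolS2 were 0.47 in roots and 0.74 in shoots and did not pass (adjusted p = 0.45 and 0.241). The shoot value reached 1.29 with an adjusted p of 0.00974 without the 7 libraries set aside, among them mock replicate 1, whose 4.74 CPM was the highest of its group. The response of aba2-3 shoots minus that of Col-O shoots was 1.00 (SE 0.49) and did not pass.

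RS6 stood at 366, 433 and 378 CPM in Col-O IAA roots, all below the mock roots. It fell by 1.10 (SE 0.19, edgeR adjusted p = 6.79e-04). In aba2-3 roots RS6 stood at 1365, 1658 and 1886 CPM after mock and 931, 541 and 817 CPM after IAA, a fall of the same size (-1.10, SE 0.19, adjusted p = 3.5e-04). In shoots the IAA differences of RS6 were -0.10 in Col-O and 0.25 in aba2-3, neither of which passed (adjusted p = 0.855 and 0.727). The root minus shoot difference of the IAA response passed in aba2-3 (-1.35, SE 0.26, adjusted p = 0.00659), the 1 member of 8 called, against 2.19% of all tested genes (1.14% higher, 1.05% lower in roots relative to shoots). In Col-O it did not (-1.0, SE 0.26, adjusted p = 0.0602), where 0 of 8 members and 0.997% of all genes were called (0.542% higher, 0.456% lower), though RS6 passed there with DESeq2 (adjusted p = 0.00818) and without the 7 libraries set aside (-1.33, adjusted p = 0.031).

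RS5 and RS2 fell with IAA in aba2-3 roots. RS5 stood at 129, 145 and 124 CPM after mock and 71.7, 54.3 and 70.7 CPM after IAA, and fell by 1.01 (SE 0.19, edgeR adjusted p = 0.00108). RS2 stood at 351, 430 and 483 CPM after mock and 204, 96.7 and 160 CPM after IAA, and fell by 1.45 (SE 0.30, adjusted p = 0.00188). No IAA library reached any mock library for either gene. In Col-O the RS5 difference was -0.56 in roots and -0.64 in shoots, and in aba2-3 shoots -0.57, none of which passed (adjusted p = 0.0886, 0.0811 and 0.176), although IAA and mock libraries did not overlap in any of the 3. It passed in Col-O shoots with DESeq2 (-0.60, adjusted p = 0.0468) and in aba2-3 shoots with the compared groups alone (-0.52, adjusted p = 0.0246). RS2 in Col-O IAA roots, at 61.5, 114 and 115 CPM, also lay below all mock roots, but its difference of -0.61 did not pass (edgeR adjusted p = 0.254). In aba2-3 shoots IAA and mock libraries of RS2 overlapped (-0.57, adjusted p = 0.521). RS4 was not called in any IAA comparison. RS2 in Col-O shoots fell from 139, 83.2 and 86.7 CPM to 54.1, 36.3 and 52.0 CPM (-1.12, SE 0.30, adjusted p = 0.044). It was no longer called in 5 of 6 fits without 1 library, those without mock shoot replicate 1 or 3 or any of the IAA shoots (adjusted p up to 0.275), nor without the 7 libraries set aside (-0.81, adjusted p = 0.144).

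None of the 8 members passed the test of the difference in IAA response between genotypes, in roots (1.32% of all genes called, 0.74% higher and 0.582% lower) or in shoots (0.00451%). Calls made in one genotype and missed in the other are therefore not shown to differ.

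**Figure D3:**
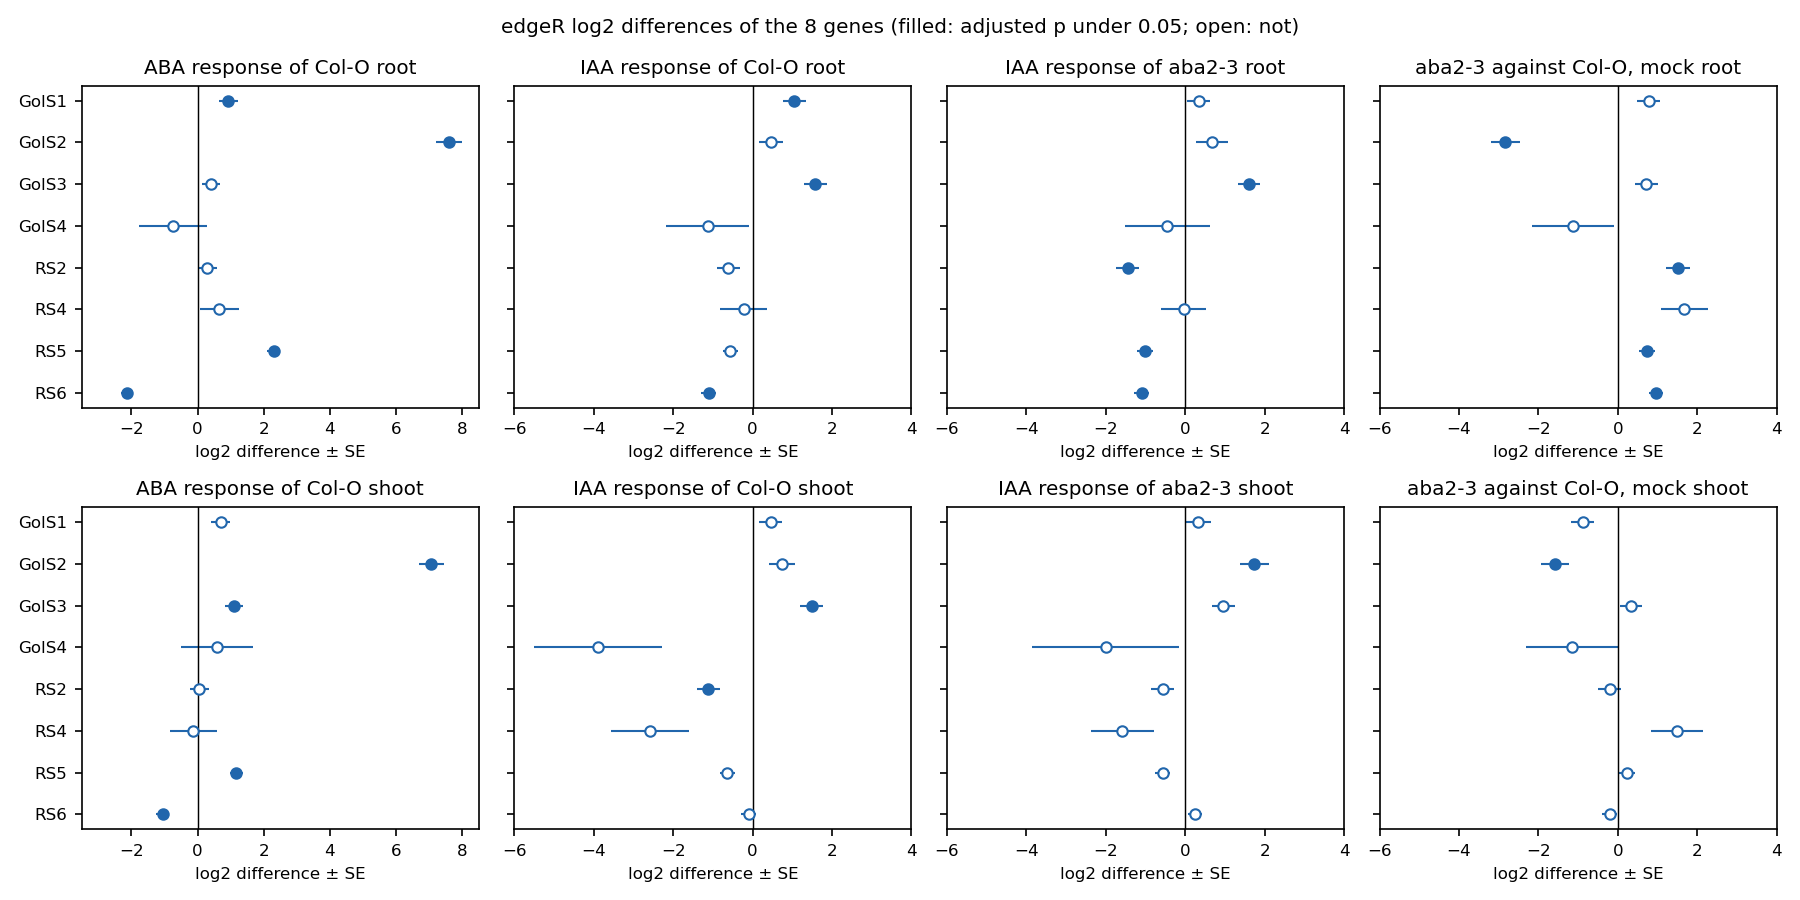
Fitted log2 differences of the 8 genes in 8 comparisons, ABA or IAA against mock and aba2-3 against Col-O after mock, roots above and shoots below. Points are edgeR estimates with whiskers of 1 SE, filled where the adjusted p was under 0.05; GolS2 stands at 7.60 and 7.06 with ABA, while the IAA panels hold GolS3 at 1.58, 1.49, 1.61 and 0.96.

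RS6 carries its second name from a screen for dark-inducible (DIN) genes, which are switched on in darkness and by lack of sugar, and 7 other genes of that name were examined beside it. In ABA roots 5 of the 7 were lower and none higher, with a median log2 difference of -1.64, against 7.4% of all genes lower. DIN11, an oxygenase, fell by 2.17, DIN1, the senescence-related SEN1, by 1.79, DIN2, a beta-glucosidase, by 1.67, DIN3, a subunit of branched-chain amino acid breakdown, by 1.64, and DIN9, a mannose phosphate isomerase, by 1.42. In ABA shoots 2 of 7 were lower, against 4.67% of all genes, DIN2 to 0.498 of its mock level and DIN3 to 0.547. Both calls were lost without mock shoot replicate 1 or ABA shoot replicate 2 or 3 and without the 7 libraries set aside, and that of DIN2 also without mock shoot replicate 2.

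In Col-O IAA roots 5 of 7 were lower, against 2.92% of all genes. DIN6, the asparagine synthetase ASN1, fell by 1.51, DIN11 by 1.41, DIN2 by 1.26 and DIN9 by 1.12. That count was 1 without mock root replicate 1 or IAA root replicate 3, 2 without mock root replicate 2 or IAA root replicate 1, and 3 without IAA root replicate 2. DIN6 kept its call in all 6 of those fits, as RS6 did. In aba2-3 IAA roots 3 of 7 were lower, against 4.82% of all genes, DIN6 by 2.12 and DIN9 by 1.05 among them, and 1 was lower without aba2-3 mock root replicate 3 or IAA root replicate 2 or 3. No gene of the 7 was called in either IAA shoot comparison, against 2.22% of all genes in Col-O and 1.92% in aba2-3.

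**Figure D4:**
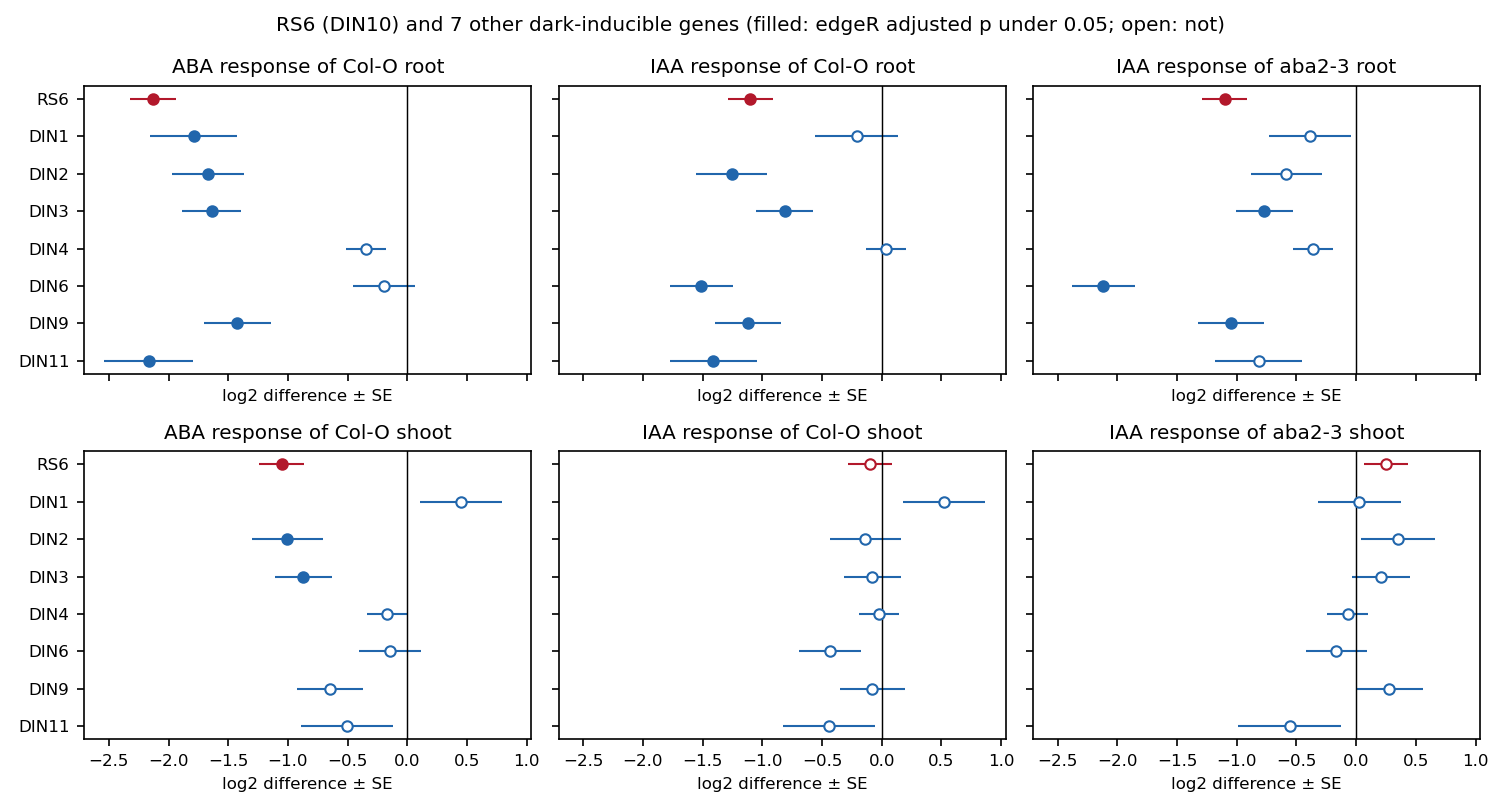
Fitted log2 differences of RS6 (red) and of 7 other dark-inducible genes (blue) with ABA in Col-O and with IAA in Col-O and aba2-3, roots above and shoots below. Whiskers are 1 SE and filled points passed an edgeR adjusted p of 0.05; RS6 is filled in all 3 root panels, at -2.13, -1.10 and -1.10, and among shoots in the ABA panel, at -1.05.

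Of the 32 substrate genes tested, 0 passed by edgeR with IAA in Col-O roots, Col-O shoots or aba2-3 shoots. Of all genes 5.57%, 2.22% and 1.92% were called there. By edgeR 5 in Col-O roots, 4 in Col-O shoots and 2 in aba2-3 shoots had an unadjusted p under 0.05. DESeq2 called 1 lower in each organ of Col-O and 0 in aba2-3 shoots. In aba2-3 roots 1 was higher and 1 lower, against 7.02% and 4.82% of all genes. That count of 2 was 4 without aba2-3 mock root replicate 1 and 1 without mock root replicate 2 or 3 or IAA root replicate 1 or 2. It was 5 without the 7 libraries set aside (3 higher, 2 lower) and 0 with the compared groups alone. The higher gene was MIOX1, another inositol oxygenase (1.04, edgeR adjusted p = 0.0327), not called in 4 of 6 fits without 1 library.

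Without added hormone, aba2-3 roots held less GolS2 and more RS2, RS5 and RS6 transcript than Col-O roots. In mock roots 4 of 8 genes were called (3 higher, 1 lower), against 7.19% of all tested genes (3.26% higher, 3.92% lower), and in mock shoots 1 of 8, lower, against 2.63% (0.853% higher, 1.78% lower). Among the ABA-induced check genes 2 of 6 were lower in aba2-3 roots and 3 of 6 in aba2-3 shoots.

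GolS2 stood at 0.521, 0.729 and 0.579 CPM in aba2-3 mock roots, from 12 to 21 counts a library, below all 3 Col-O mock roots. The difference was -2.83 (SE 0.37, edgeR adjusted p = 7.71e-05). In shoots, at 0.946, 1.27 and 0.716 CPM, GolS2 was lower by 1.59 (-1.59, SE 0.35, adjusted p = 0.0126). The shoot call was lost without Col-O mock shoot replicate 1 (-1.09, adjusted p = 0.124) or aba2-3 mock shoot replicate 3 (-1.40, adjusted p = 0.121), and without the 7 libraries set aside (-1.08, adjusted p = 0.0644). The root difference kept its call in all of these settings.

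RS2 in aba2-3 mock roots, at 351, 430 and 483 CPM, stood above the Col-O range of 130 to 160 CPM (1.51, SE 0.30, edgeR adjusted p = 0.0028). RS6 at 1365 to 1886 CPM likewise exceeded the Col-O range of 784 to 922 CPM (0.96, SE 0.19, adjusted p = 0.00264). RS5 at 124 to 145 CPM stood above 66.9 to 98.3 CPM (0.74, SE 0.19, adjusted p = 0.0206), a call lost without Col-O mock root replicate 1 or 2 or aba2-3 mock root replicate 2, with an adjusted p of 0.115, 0.108 and 0.0843. The summed raffinose synthase-like level of aba2-3 mock roots was 758 ± 112 CPM per kilobase (SD, n = 3), the highest of the 10 groups, beside 222 ± 9.36 in aba2-3 mock shoots.

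RS4 libraries of aba2-3 stood above those of Col-O in both organs, at 9.15, 8.36 and 5.72 CPM against 2.71, 2.96 and 1.55 CPM in roots. In shoots they held 21 to 46 counts against 6 to 38, in libraries of unlike depth. The differences of 1.68 and 1.49 did not pass (edgeR adjusted p = 0.0853 and 0.284), and the root one passed with DESeq2 (adjusted p = 0.0282). GolS1 was above Col-O in aba2-3 roots (0.78, adjusted p = 0.11) and below it in aba2-3 shoots (-0.89, adjusted p = 0.12), neither of which passed by edgeR, while both did by DESeq2 (adjusted p = 0.0493 and 0.0465). GolS3 was not called by genotype in either organ, and in roots it passed without the 7 libraries set aside (0.99, adjusted p = 0.0275).

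Of the 32 substrate genes, 1 was higher and 3 lower in aba2-3 mock roots, against 3.26% and 3.92% of all genes, and 2 higher and 3 lower in aba2-3 mock shoots, against 0.853% and 1.78%. SUS6, a sucrose synthase, and MIOX1 were lower in roots by 1.37 and 1.26 (-1.37 and -1.26). SPSA2 was lower in shoots (-1.44, edgeR adjusted p = 0.00984), as was MIOX1 (-1.38), and MIPS3 and VTC4, both of myo-inositol synthesis, were higher by 1.05 and 1.07. These counts rest on single libraries: the shoot count was 0 without Col-O mock shoot replicate 1 or aba2-3 mock shoot replicate 2 or 3 and 3 without Col-O mock shoot replicate 2, and the root count was 1 without Col-O mock root replicate 2 or 3 or aba2-3 mock root replicate 3. Among the regulators DREB1A was lower in aba2-3 roots, at 0.325 ± 0.470 CPM against 2.21 ± 1.24 CPM (SD, n = 3), and HSFA3, a heat shock factor, was higher, at 3.43 ± 0.551 against 1.51 ± 0.557 CPM. That count of 2 was 1 without Col-O mock root replicate 1 or aba2-3 mock root replicate 3 and 0 without Col-O mock root replicate 2. Among the dark-inducible genes 1 was lower in each organ, DIN2 (-1.05 and -1.11), called in 2 of 6 fits without 1 library in each organ.

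The 10 groups were ordered by the mean level of each gene, and neighbours in that order were compared by their libraries. No such count was made over all genes, so the counts describe these members alone. For GolS2 the ABA roots, ABA shoots and IAA-treated Col-O roots each stood apart from the next group by mean, and 5 of its 9 neighbouring pairs of groups overlapped. The IAA-treated Col-O roots, at 5.74 to 6.56 CPM, still overlapped the Col-O mock roots, whose replicate 2 stood at 7.11 CPM. For RS5, ABA roots, ABA shoots, aba2-3 mock roots and aba2-3 mock shoots each stood apart from the next group. RS6 was highest in aba2-3 mock roots and lowest in Col-O ABA roots, with aba2-3 mock shoots, Col-O IAA roots, Col-O ABA shoots and Col-O ABA roots each apart from the next. GolS1 and GolS3 had 7 of 9 neighbouring pairs overlapping, RS2 also 7, RS4 8 and GolS4 all 9.

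The tested genes most like each member in mean log2(CPM + 1) over the 10 groups were found among 19189 genes averaging at least 1 CPM, which GolS4 did not reach. For GolS2 they were the sucrose phosphate synthase gene SPSA2, named SPS2F in RefSeq (Pearson r = 0.99), the late embryogenesis gene LEA4-5 (0.988) and the phosphatase gene ABI2 (0.988). For RS6 they were BZO2H3 (0.969), a bZIP factor gene, AT5G02070 (0.959) and AT4G31510 (0.953). For RS5 they were AT1G15740 (0.956), AT1G56610 (0.946) and OXS2 (0.934). For RS2 they were BPC4 (0.968), PRMT7 (0.960) and RSH2 (0.957), and for RS4 AT4G12545 (0.980), AT2G22750 (0.975) and AT3G50030 (0.974). For GolS3 they were AT2G41730 (0.973), NOI (0.946) and HSP17.4 (0.934), and for GolS1 RAB7B (0.963), SKIP5 (0.962) and AT1G12810 (0.941). Between members, GolS2 had an r of 0.786 with RS5 and -0.806 with RS6, and RS2 one of 0.844 with RS4. These coefficients describe 10 group means, in which ABA groups weigh heavily for GolS2, and carry no test.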

How the data were processed

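RNA was measured in 30 libraries, 3 in each of 10 groups defined by genotype, treatment and organ, as the labels give them. The labels' protocols name RNeasy extraction and SMARTer cDNA, and the submitters' processing notes name STAR, Subread, featureCounts, edgeR, limma and the TAIR10 genome. Versions and the strand setting are not given in the sources used here, so reads of GolS1 and GolS4 could not be separated from those of a gene on the opposite strand that overlaps each by 43 and 33 bases. Each deposited table holds whole counts per gene, and beside them CPM and RPKM values that the authors derived from those counts. In all 30 tables the deposited CPM equalled the counts scaled to the table's total, and the deposited RPKM equalled CPM per kilobase of exon, within a relative tolerance of 1e-06. Only the counts entered tests.

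Counts were tested with edgeR 4.0.16 (R 4.3.3, limma 3.58.1), with TMM scaling, the default filter of low counts, a quasi-likelihood F test on 1 mean per group over all 30 libraries, and Benjamini-Hochberg adjustment over 22156 genes in each of 14 comparisons. A gene was called at an adjusted p under 0.05. Groups were said not to overlap where every library of one lay above every library of the other. The share of all genes without overlap was not counted, so lack of overlap is no test. CPM in the text are TMM-scaled, except that limits for 0 counts (3 counts of the total, counting error only) use total counts. Fold changes and SE come from the edgeR fit. Family sums and shares were formed per kilobase of deposited exon length. The test was checked on simulated counts: a first criterion on the number of changed genes recovered was not met and was then replaced by checks of bias, direction, false calls and recovery at higher counts, which were met. Libraries of a group differed beyond counting noise in all 30 within-group pairs, so none was counted as a repeat.

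The 8 members and all gene lists were chosen with earlier results of these data known. From each list the text names genes called with a log2 difference of at least 1 in size, largest first, up to 6 an organ for ABA and 4 for the other comparisons; DIN3 in ABA shoots and DREB2A in IAA roots were named after their values were seen. Likeness names the 3 nearest genes of each member but GolS4. Same-numbered libraries were not paired (135 pairs of deviations over all groups, median r 0.011), and a pairing of root with shoot was not tested apart. Alternatives were DESeq2 1.42.0, its size factors in edgeR, no filter, a replicate block, the compared groups alone, leaving out 7 libraries together (6 rich in markers of the other organ, or low in their own, and the shallowest), and leaving out each library. Upstream windows came from TAIR10.1, in which 98.8% of 83265 deposited gaps between exons began with GT and ended with AG, as did 19 of 19 in the members.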

Additional observations from a re-analysis of the deposited data

Results flagged for a closer look

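Of 40 interaction tests made for the 8 genes, between organs or between genotypes, 3 passed, all of them between organs. Over all tested genes 1.72% were called for the organ difference with ABA in Col-O and 2.19% for that with IAA in aba2-3. RS5 rose more with ABA in Col-O roots than in Col-O shoots, with a root minus shoot difference of 1.13 on the log2 scale (edgeR adjusted p = 0.0301). RS6 fell more with ABA in Col-O roots than in Col-O shoots, with a difference of -1.07 (edgeR adjusted p = 0.0315). RS6 also differed between the roots and shoots of aba2-3 in its response to IAA, by -1.35 (edgeR adjusted p = 0.00659). In that comparison every IAA root library of RS6 lay below every mock root library, while the IAA shoot libraries, at 553, 424 and 616 CPM, overlapped the mock shoots at 468, 436 and 437 CPM. Shoot markers were at 6.80 to 11.6% of their shoot level in 2 of the 3 ABA root libraries and in 1 of the 3 mock root libraries of each genotype. Their part in these organ differences was not tested. The fit without the 7 libraries set aside gave 0.95 for RS5 and -1.39 for RS6 with ABA, from 1 ABA root library. For RS6 with IAA in aba2-3 it gave -1.39, still called. The calls of the organ difference in ABA response were lost in 7 of 12 fits without 1 library for RS5 and in 9 of 12 for RS6.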

How the results depend on the processing

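Of 29 called differences of the 8 genes, 28 were also called with RLE size factors, 27 without the filter on low counts, 25 with the compared groups alone, 24 without the 7 libraries set aside and 29 with DESeq2, and 20 were called in every fit that left out 1 library. The rise of GolS2 and RS5 and the fall of RS6 with ABA were called in both organs in all of these, as were the rises of GolS3 and falls of RS6 with IAA in Col-O roots and aba2-3 roots. Without the 7 libraries set aside, calls in ABA roots rest on 1 ABA library. Replicate numbers recur in every group. Of 135 same-numbered pairs of libraries from different groups, 25 had an r over 0.1. Root and shoot libraries of the same genotype, treatment and number were not examined apart. A pairing of the organs was therefore not tested, and tests between organs took their libraries as unpaired. With the replicate block all 29 differences were called, GolS2 with ABA at 7.63 in roots and 7.05 in shoots, and all 14 counts of members were equal to those without it.

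Signs across fits were followed for differences called in some fit and for selected others. Among these the sign turned in 2 that were not called. RS6 with IAA in Col-O shoots was 0.11 without the 7 libraries set aside and between -0.18 and 0.11 when 1 library was left out, the positive value being without Col-O mock shoot replicate 1, and the root minus shoot ABA response of GolS2 was -0.63 without the 7 libraries set aside. Members called with IAA in Col-O shoots numbered 1 with RLE size factors and with the compared groups alone. In aba2-3 shoots they were 2 without the 7 libraries set aside and with DESeq2, and 3 with the compared groups alone. Between genotypes in mock shoots they were 0 without the 7 libraries set aside and with the groups alone, and 2 with DESeq2. Between organs they were 5 without the 7 libraries set aside. For the organ difference in IAA response of Col-O they were 1 without the 7 libraries set aside and with DESeq2, and for that in ABA response 0 without the filter and with the groups alone and 1 without the 7 libraries set aside.

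Member counts are to be read beside the counts over all genes in the same setting. Those moved by more than 1.5 times as follows, and by no more in the other settings outside leaving out 1 library. The compared groups alone gave 1876 for IAA in Col-O roots, 195 in Col-O shoots, 1340 in aba2-3 roots and 1347 in aba2-3 shoots, 1209 for ABA in shoots, and 297 between genotypes in mock shoots. For differences of response they gave 106 (IAA in Col-O, organs), 155 (ABA, organs), 154 (genotypes, roots) and 0 (genotypes, shoots). DESeq2 gave 2039, 1106 and 707 for IAA in Col-O roots, Col-O shoots and aba2-3 shoots, 2459 and 1198 between genotypes in mock roots and shoots, and 711, 1048, 985, 955 and 2 for the differences of response (organs for IAA in Col-O, ABA and IAA in aba2-3, then genotypes in roots and shoots). Without the filter the genotype differences of IAA response gave 153 in roots and 0 in shoots. Without the 7 libraries set aside the organ difference in ABA response gave 629 and the genotype difference of IAA response in shoots 0.

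Leaving out each library in turn moved some of these counts. For all genes they ran from 563 to 905 (IAA, Col-O roots), 164 to 797 (IAA, Col-O shoots), 1422 to 2338 (ABA, shoots), 1575 to 2251 (IAA, aba2-3 roots), 224 to 389 (IAA, aba2-3 shoots), 537 to 1391 and 134 to 701 (genotypes, mock roots and shoots), 94 to 538, 166 to 713 and 225 to 485 (organ differences for IAA in Col-O, ABA, and IAA in aba2-3), and 56 to 324 and 0 to 2 (genotype differences of IAA response in roots and shoots). For members they ran from 1 to 2 (IAA, Col-O shoots), 0 to 1 (IAA, aba2-3 shoots), 0 to 1 (genotypes, mock shoots), 0 to 1 (organ difference for IAA in Col-O) and 0 to 2 (organ difference for ABA). Group levels moved by less than 1 SD in 72 of 80 cases when total counts replaced TMM scaling. Low counts limit the precision for GolS4, and for RS4 in shoots.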
